A study of Mus musculus with 4 samples.

Results

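The cytosolic ribosome is the machine that translates messenger RNA into protein. Its proteins are encoded by the Rpl genes for the large subunit and the Rps genes for the small subunit. Transcripts of these genes belong to the TOP class, which begin with a cytidine followed by a run of pyrimidines and whose translation is controlled by the growth kinase mTORC1. In the intestinal crypt, stem and progenitor cells grow and divide, while their descendants become absorptive enterocytes, mucus-secreting goblet cells, antimicrobial Paneth cells, hormone-secreting enteroendocrine cells or chemosensory tuft cells.

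The genes described here are those whose symbol starts with Rpl or Rps, without the Rps6k kinase genes and the symbols holding -ps (pseudogenes), and with at least 1000 UMIs over 4 matrices. A UMI, or unique molecular identifier, marks 1 captured transcript molecule. The rule gave 83 genes of 32285 in the files, 49 Rpl and 34 Rps. The members were chosen by symbol and by summed counts, so their abundance is part of the choice and is described without a test. The member with the fewest UMIs was Rps27rt with 12938, well above the minimum, and outside it lay Rpl39l and Rpl3l with 4 each and Rpl10l with 0. Of the 83 members, 2 encode no canonical ribosomal protein: Rps19bp1 encodes a nucleolar protein that binds ribosomal protein S19, and Rpl7l1 a nucleolar relative of Rpl7. Conversely, Fau and Rack1 encode ribosomal proteins and fall outside the prefix rule.

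Cells came from mouse small-intestinal crypts. There were 4 libraries, 0D-1 with 0D-2 and 2D-1 with 2D-2, in groups that the labels call 0D and 2D under the prefix SD, and the series describes mice sampled before and after sleep deprivation. Where 4 values follow each other, they are in that order. What D stands for, and the strain, age and sex of the mice, are not given in the labels, which also do not say that the libraries came from separate animals. The p-values between 2D and 0D therefore measure library-to-library spread, which may be technical. Those between cell classes come from fits that take out each library's level. They measure how far class differences vary over the same 4 libraries. After filtering, 7025 to 7988 cells per library were kept (29731 in all), with 93090534 to 113758758 UMIs, and 13 to 16 cell barcodes were shared by each pair of libraries. Marker genes, none of them a member, placed 25415 cells in 7 classes. At 10 CPM or more (UMIs of a gene per 1000000 UMIs of the class), each class carried all of its own markers, except that enterocytes carried 13 of 14. The cells were gated on these markers, so this is no test of the classes. Goblet, enteroendocrine and tuft cells also carried 12 of 12 Paneth markers at that level, and stem, dividing and enterocyte cells 11. Summed, Paneth markers took 6733 to 7101 of every 10000 UMIs in Paneth cells and 86.2 to 151 in goblet cells. Of the cells not placed, 2961 passed the gates of more than 1 lineage and were left out. The stem, enterocyte and goblet classes hold dividing cells too, and the Paneth, enteroendocrine and tuft classes a few. The dividing class holds cells that passed the dividing gate and no lineage gate.

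The starts of the members show the pyrimidine element in part. Promoter sequences from RefSeq on GRCm38.p6 were found for 63 of the 83 members. The letters CTTTC lay within 20 bases of an annotated start on the gene's strand in 19 of those 63 (30.2%), against 6.44% of 27025 genes in the same table. On the other strand the shares were 6.35% and 5.67%. An annotated start that is itself a C followed by 4 pyrimidines was found in 14 of 63 members (22.2%) and in 3.01% of all genes, a pattern that can overlap CTTTC. The sequences below run from 20 bases before the annotated start to the 10 bases from it, 5′ to 3′ on the gene's strand, with CTTTC in capitals. The first 4 are subunit genes with CTTTC in the window and a start that is a C followed by 4 pyrimidines, among them the stalk gene Rplp2. In Rps15a the CTTTC lies before the start and is not the start itself. The next 2 are Rps27 and its retrogene Rps27rt, and the last 2 are the paralogs Rpl36a and Rpl36al, whose levels part between classes and whose windows hold no CTTTC.
Rpl35 (chr2:39005122-39005151, minus strand): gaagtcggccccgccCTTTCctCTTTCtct
Rpl38 (chr11:114668560-114668589, plus strand): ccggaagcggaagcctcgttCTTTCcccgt
Rplp2 (chr7:141447631-141447660, plus strand): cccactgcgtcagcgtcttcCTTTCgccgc
Rps15a (chr7:118116138-118116167, minus strand): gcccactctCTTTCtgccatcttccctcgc
Rps27 (chr3:90213639-90213668, minus strand): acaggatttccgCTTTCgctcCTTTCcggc
Rps27rt (chr9:114982730-114982759, minus strand): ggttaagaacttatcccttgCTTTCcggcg
Rpl36a (chrX:134585634-134585663, plus strand): aggaagtgcacccaggcaccgcctataaac
Rpl36al (chr12:69184058-69184087, minus strand): gttcgcattcccgtcgctcaggttcagttc
A match describes letters near an annotated start, before or after it, and no match says only that the string CTTTC is not in that window.

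Across classes, ribosomal protein transcripts took the largest share of UMIs in stem cells and the smallest in Paneth cells. In stem cells the 83 genes together made up 29.5%, 28.2%, 26.5% and 28.9% of UMIs. Dividing cells held 24.4%, 23.0%, 21.6% and 23.9%, and enterocytes 21.1%, 19.7%, 17.7% and 20.2%. These 3 classes did not overlap: the lowest stem value lay above the highest dividing value, and the lowest dividing value above the highest enterocyte value. Goblet cells held 18.7%, 17.6%, 14.6% and 18.5%, overlapping with enterocytes. Tuft cells held 18.3%, 16.6%, 14.1% and 17.1%, within the goblet range in 3 of 4 libraries. Enteroendocrine cells held 15.4%, 14.5%, 13.8% and 14.1%. Paneth cells held 3.24%, 2.52%, 3.18% and 2.87%, below every other value. The order stem, dividing, enterocyte, goblet, tuft, enteroendocrine, Paneth was found in each of the 4 libraries. Exact binomial 95% intervals on these shares were at most 0.172 percentage points wide and cover counting error only.

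The Paneth share depends on what else those cells express. Paneth marker genes (defensins and other secreted products) took 6733 to 7101 of every 10000 Paneth UMIs. Leaving out the marker genes of all lists and the mitochondrially encoded genes raised the Paneth share to 11.3%, 9.06%, 10.2% and 9.74%, still below the 31.8%, 30.5%, 28.7% and 31.1% of stem cells. It was also below the lowest enteroendocrine value, 15.9%. Median UMIs per cell were 29791 to 44655 in Paneth cells and 10535 to 17959 in stem cells. The median member UMIs per cell were 670 to 1078 in Paneth and 3106 to 4935 in stem cells, so the lower level also held for the count per cell. In enteroendocrine and tuft cells the median was 522 to 648.5 and 219.5 to 488 member UMIs, at median depths of 4463 to 6229 and 2198.5 to 3637 UMIs per cell.

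**Figure D1:**
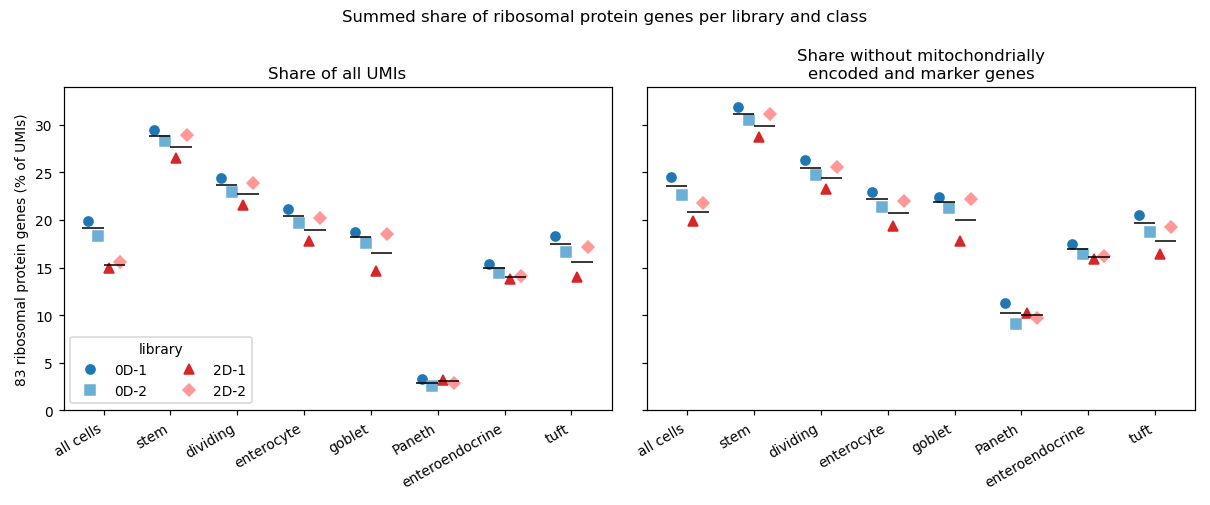
Summed share of the 83 ribosomal protein genes (y axis, % of UMIs) in each class (x axis) and library (symbols), as a share of all UMIs (left) and without mitochondrially encoded and marker genes (right); black lines are group means of 2 libraries. Stem cells are highest and Paneth cells lowest in each library, and 2D-1 is the lowest library in 6 of 7 classes on the left.

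Within a class the share differed between cells that passed the dividing gate and the rest, in a direction that was not the same for all classes. In stem cells, those that passed the dividing gate had shares of 28.4%, 27.3%, 25.8% and 27.7%, and those that did not had 31.1%, 29.9%, 28.0% and 30.8%. In goblet cells the order was the opposite, with 20.6%, 19.5%, 17.3% and 20.3% in dividing cells against 18.1%, 17.1%, 13.7% and 18.1% in the others. Each of the 4 libraries showed these directions. Enterocytes showed no single direction, with 20.9%, 19.2%, 18.2% and 20.6% in dividing cells against 21.1%, 19.9%, 17.6% and 20.04% in the others. Few enteroendocrine (8 to 20 per library), Paneth (4 to 12) and tuft cells (6 to 10) passed the dividing gate. Those few held a larger share than the rest of their class in each library. In enteroendocrine cells the shares were 21.9%, 22.1%, 20.4% and 23.3% against 14.3%, 13.6%, 13.3% and 13.6%.

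The 49 Rpl genes together contributed more UMIs than the 34 Rps genes, and the balance moved little. These are sums over unequal numbers of genes and not levels per gene. Rpl genes made up 55.1% to 55.8% of member UMIs in stem cells, 55.6% to 56.2% in enterocytes, 56.9% to 59.0% in goblet cells and 56.6% to 57.3% in Paneth cells. The member with the most UMIs was Rpl13, at 8408, 8059, 7348 and 8305 CPM in stem cells and 924, 703, 907 and 793 CPM in Paneth cells. Rps2, also among the 3 highest, held a mean of 6776 ± 283 CPM in stem cells (SD, n = 4 libraries). Fewest UMIs were counted for Rpl7l1, Rps19bp1 and Rps27rt, at 98.8 ± 7.57, 83.4 ± 2.18 and 42.3 ± 3.41 CPM in stem cells. The libraries count the 3′ ends of molecules, so these levels need no correction for length.

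Each class was then compared with stem cells by edgeR's quasi-likelihood test, on UMIs summed per class and library with library as a block and Benjamini-Hochberg adjustment over 14122 genes (threshold 0.05). More than 60 of the 83 members were called lower in each class but dividing cells. In enteroendocrine cells 83 of 83 members were called lower and 0 higher, with a median log2 difference of -1.29, where 33.8% of all genes were called lower. In tuft cells 82 were lower and 0 higher (median -0.95, background 28%). In Paneth cells 78 were lower and 2 higher (median -0.71, background 32.1% lower and 32.7% higher). In goblet cells 75 were lower and 1 higher (median -0.46, background 37.5% and 35.4%). In enterocytes 65 were lower and 2 higher (median -0.29, background 36.9% and 34.8%). In dividing cells 36 were lower and 4 higher (median -0.19, background 23.4% and 29.5%). The dividing count, 40 called in both directions, was 23 when either 0D library was left out, 65 with 2D-1 left out and 19 with 2D-2 left out. The members were chosen with earlier results in view, and the summed share already shows this order, so the counts describe how evenly it is spread over the genes.

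These differences are relative to TMM scaling, which centres each comparison near the median gene. Scaled by library totals alone, the median of all genes shifted to -0.30 in enterocytes, -0.26 in goblet, -2.53 in Paneth, 0.44 in enteroendocrine and 0.16 in tuft cells. The medians of the members were then -0.54, -0.70, -3.29, -0.94 and -0.74. Each of these member medians lay below the median gene of its class under both scalings. Enteroendocrine cells lay below Paneth cells in the median log2 difference under TMM and under DESeq2's scaling, and above them under library totals, as in the shares.

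The members that fell most differed in part by class. Rpl36a (large subunit), Rpl12 (part of the stalk base, where elongation factors bind) and Rps2 (near the entry site of messenger RNA) lay furthest below the member median on average over the 6 contrasts. Rps2 stood out in the rarer secretory classes. It held 6979, 6696, 7018 and 6411 CPM in stem cells, 2533, 1961, 2021 and 1759 in enteroendocrine cells and 2762, 2080, 1810 and 2196 in tuft cells. Its log2 difference from stem cells was -2.07 (SE 0.11, adjusted p = 4.63e-18) in enteroendocrine and -1.83 (SE 0.11, adjusted p = 4.26e-16) in tuft cells. In enterocytes Rps2 held 5492, 5126, 5181 and 5132 CPM, and its difference of -0.13 was not called.

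Rpl12 had the lowest log2 difference in enterocytes (-0.63, SE 0.10, adjusted p = 4.09e-07) and in dividing cells (-0.38, adjusted p = 0.00102). It fell from 4445, 4252, 3657 and 4216 CPM in stem cells to 2535, 2281, 1915 and 2296 in enterocytes, with no overlap. Rpl36a and Rpl3, the core protein next to the peptidyl transferase centre, followed in enterocytes at -0.54 and -0.46. In goblet cells Rps20 and Rpl36a were lowest (-0.80 and -0.77). In Paneth cells the 3 lowest were Rpl23a, which lines the exit of the protein tunnel, Rps19, whose mutation causes an inherited anaemia, and the stalk protein Rplp1 (-1.10, -1.06 and -1.05). Rpl39, which lies in the tunnel wall, was among the 3 lowest in dividing and enteroendocrine cells at -0.37 and -1.77, and Rps20 in tuft cells at -1.39. Across contrasts, 34 members were called lower in all 6, against 4.64% of all genes, and 65 in 5 or 6, against 14.1%.

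**Figure D2:**
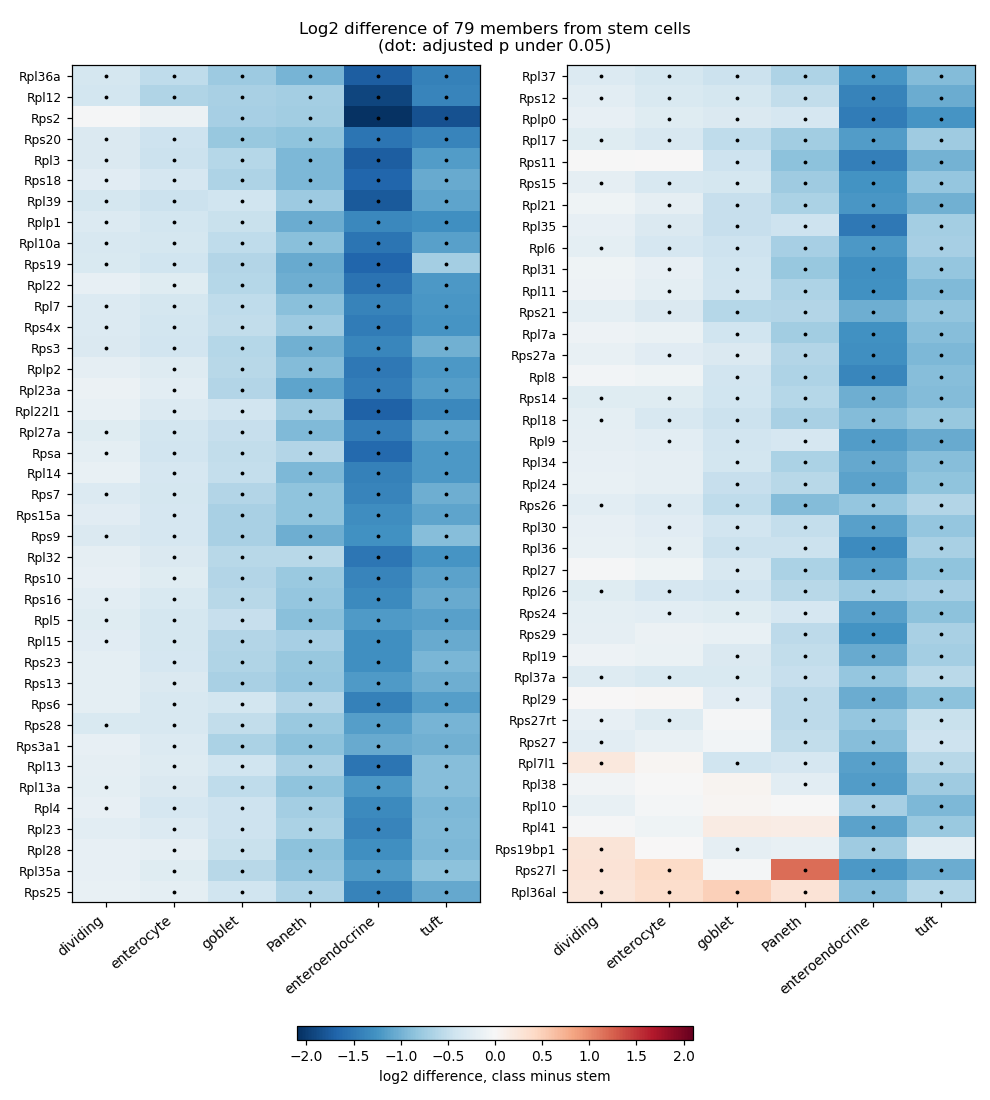
Log2 difference from stem cells for individual members (rows, in order of their mean distance from the member median) in 6 classes (columns), with a dot where edgeR's adjusted p is under 0.05. Most squares are blue (lower than stem); the dotted red squares belong to Rps27l, Rpl36al, Rpl7l1 and Rps19bp1, and the Paneth values of Rps27l and Rpl36al turn negative when scaled by library totals.

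Genes known for roles beyond bulk translation followed the rest. Rpsa, the laminin receptor precursor, held 5642, 5307, 5252 and 5561 CPM in stem cells and had log2 differences of -0.40 in enterocytes, -0.52 in goblet and -1.63 in enteroendocrine cells. Rps6, the substrate of S6 kinase, was at -0.33, -0.39 and -1.42 in the same classes. Rpl5 and Rpl11, which can bind the p53 regulator Mdm2 outside the ribosome, were at -0.37 and -0.21 in enterocytes, -0.88 and -0.65 in Paneth and -1.15 and -0.93 in tuft cells. The stalk proteins Rplp0, Rplp1 and Rplp2 were at -0.36, -1.05 and -0.92 in Paneth cells, so Rplp0 was the least lowered of the 3. In enteroendocrine cells the same 3 were at -1.47, -1.35 and -1.50.

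Only 4 members were called higher than in stem cells in any class: Rps27l, Rpl36al, Rpl7l1 and Rps19bp1. Rps27l is a paralog of Rps27 and a known target of p53. It was higher in dividing cells (0.28), enterocytes (0.40) and Paneth cells (1.16, SE 0.11, adjusted p = 3.53e-11), and lower in enteroendocrine (-1.21) and tuft cells (-1.04). The Paneth difference turned to -1.42 under library totals, where the median gene is at -2.53. As CPM of all Paneth UMIs, Rps27l held 238, 260, 277 and 273, against 712, 762, 705 and 643 in stem cells. Rpl36al, a paralog of Rpl36a, was higher in goblet cells (0.50, SE 0.08, adjusted p = 1.84e-06), enterocytes (0.37), Paneth cells (0.29) and dividing cells (0.26). Its Paneth difference became -2.29 under library totals. Rpl7l1 and Rps19bp1, the nucleolar members, were called higher in dividing cells (0.22 and 0.28). The dividing-cell calls of Rps27l, Rpl36al and Rpl7l1 were lost when any library but 2D-1 was left out, with edgeR's adjusted p of 0.055 to 0.147. Under library totals the calls of Rps27l, Rpl36al and Rpl7l1 were lost too (edgeR's adjusted p = 0.105, 0.0724 and 0.117). With DESeq2 those of Rps27l and Rpl7l1 were lost (DESeq2's adjusted p = 0.140 and 0.0900). Stricter gates lost that of Rps27l (edgeR's adjusted p = 0.0514).

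A ratio of paralogs within the same cells does not depend on the scaling. Of the UMIs of Rps27l plus Rps27, Rps27l made up 25.04%, 27.5%, 28.2% and 23.7% in stem cells and 46.5%, 55.6%, 54.0% and 55.6% in Paneth cells, with no overlap. It made up 20.7%, 19.7%, 16.8% and 17.3% in tuft cells, below every stem value. Rpl36al made up 36.6%, 39.0%, 41.2% and 37.1% of Rpl36al plus Rpl36a in stem cells. In each of the other 6 classes its share was higher than in stem cells in every library, from 46.1% in dividing cells of 0D-1 to 64.7% in goblet cells of 2D-1. Rpl36a and Rpl36al thus moved apart: Rpl36a fell from 1730, 1641, 1447 and 1668 CPM in stem cells to 926, 866, 572 and 874 in goblet cells, and Rpl36al went from 1000.1, 1049, 1014 and 982 to 1222, 1269, 1046 and 1280. In 2D-1 the goblet level of Rpl36al lay within the stem range.

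In the other pairs the paralog stayed the smaller part in the class means. Rpl22l1, which can replace Rpl22 in the ribosome, made up a mean of 38.7% ± 1.43 of its pair in stem cells and 43.2% ± 3.82 in Paneth cells (SD, n = 4). Its Paneth share was above the stem share in each library, while the ranges overlapped. Rpl7l1 made up 3.13% ± 0.43 in stem, 4.40% ± 0.49 in dividing and 4.89% ± 1.13 in tuft cells, again above stem cells in each library. Rps27rt made up between 1.90% and 2.18% of its pair with Rps27 in the class means. Rps27rt is a retrogene copy of Rps27, and reads that fit both cannot be assigned with certainty, as is true of other members with close copies. The widest exact binomial 95% interval among the 5 pairs was 6.68 points, in tuft cells of 2D-1. Rpl39l and Rpl10l, known from testis, and Rpl3l, known from muscle, had 0 to 4 UMIs in all.

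**Figure D3:**
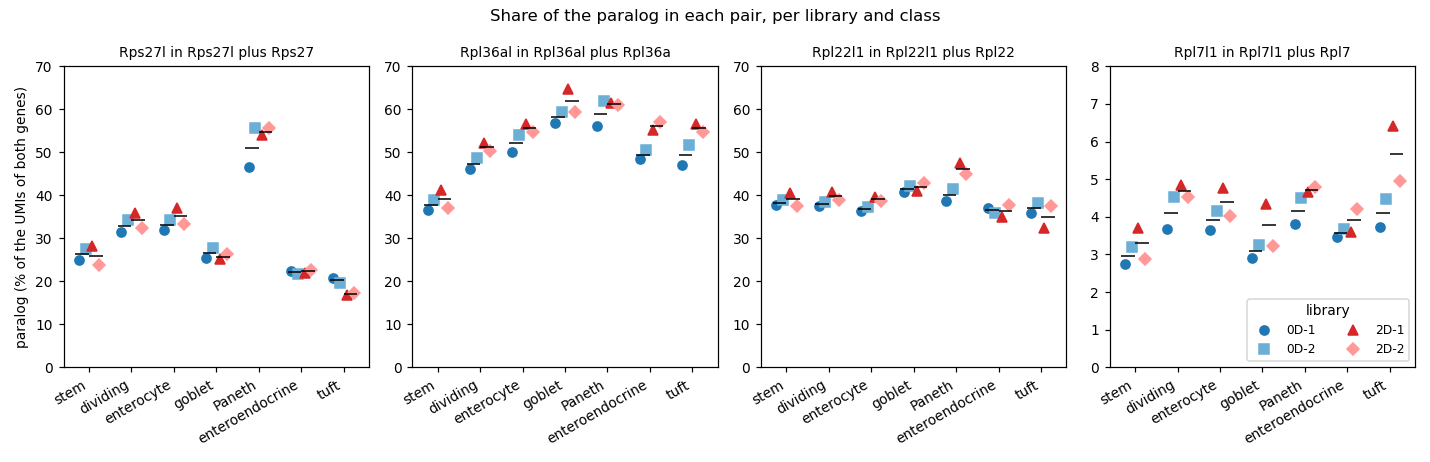
Share of the paralog among the UMIs of both genes (y axis, %) in each class (x axis) and library (symbols), for 4 pairs; black lines are group means and the y axis of the fourth panel is expanded. Rps27l passes 46% in each library only in Paneth cells, and Rpl36al is lowest in stem cells.

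Between the groups, ribosomal protein transcripts took a smaller share in both 2D libraries when all cells were summed. The shares were 19.9% and 18.4% in the 0D libraries and 14.97% and 15.6% in the 2D libraries, a mean of 19.1% ± 1.09 against 15.3% ± 0.44 (SD, n = 2). The groups did not overlap. For 83 of 83 members both 2D libraries lay below both 0D libraries, as did 38.2% of all 15454 genes tested, and 0 members lay above, as did 16.3% of genes. Taken singly, 2D-1 lay below both 0D libraries for 44.7% and 2D-2 for 65.3% of all genes. The median log2 change of the members was -0.21, and -0.32 with library totals, where the median gene moved to -0.11. None of the 83 was called by edgeR's quasi-likelihood test (smallest adjusted p = 0.201), and neither was any of the 15454 genes (0% called). At an unadjusted p under 0.05 there were 5 members and 3132 genes, and DESeq2 called 0 members. Sums over all cells also change when the mix of classes changes, so fewer cells of a class and less RNA per cell cannot be told apart in them.

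The mix of gated classes differed between the groups. With the classes weighted alike, 2D-1 stayed below both 0D libraries and 2D-2 did not. Paneth cells, the class with the lowest share, numbered 304 and 306 in the 0D libraries and 483 and 677 in the 2D libraries. Stem cells, with the highest share, numbered 1096 and 800 against 493 and 461. Over the gated cells the shares were 19.7%, 18.3%, 14.8% and 15.5%. With each class given the weight it had among 0D UMIs, they became 19.6%, 18.4%, 16.5% and 19.1%. Library 2D-2 then lay between the 0D libraries, and 2D-1 stayed below both. This reweighting was chosen after the values were seen, and the part of the class mix in the lower share was not tested.

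Within classes no member was called between 2D and 0D in any of the 7, by edgeR's quasi-likelihood test over 8148 to 13172 genes. The share of all genes called was 0.0937% in stem, 0.189% in dividing, 0.0697% in enterocyte, 0% in goblet, 0% in Paneth, 0.215% in enteroendocrine and 0.233% in tuft cells. DESeq2 called 1 member, in stem cells. Members with an unadjusted p under 0.05 numbered 6, 2, 4, 0, 0, 8 and 6 in those classes. Median log2 changes of the members were -0.10 in stem, -0.06 in dividing, -0.10 in enterocyte, -0.21 in goblet, -0.03 in Paneth, -0.11 in enteroendocrine and -0.19 in tuft cells. Under library totals the Paneth median turned to 0.07, while the median Paneth gene moved to 0.11. The test of whether the change in a class differed from that in stem cells called 0 members in each of 6 classes, where it called 0% of all genes in dividing, 0.0991% in enterocyte, 0.269% in goblet, 0.149% in Paneth, 0% in enteroendocrine and 0.00708% in tuft cells.

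Within classes the 2D libraries differed from each other. In 2D-1 the summed share was the lowest of the 4 libraries in 6 of 7 classes, the exception being Paneth cells. In goblet cells 2D-1 held 14.6%, against 18.7% and 17.6% in the 0D libraries and 18.5% in 2D-2. Counted by gene, 78 of 83 members in goblet cells of 2D-1 lay below both 0D libraries, as did 26% of all genes. In goblet cells of 2D-2 the count was 17, against 43.5% of all genes. In tuft cells the counts were 80 in 2D-1 and 25 in 2D-2 (backgrounds 36.4% and 29.1%), and in enterocytes 78 and 32 (40.6% and 42.1%). In stem cells they were 71 and 32 (30.9% and 36.8%), and in dividing cells 69 and 20 (39.4% and 43.6%). Enteroendocrine cells differed less, with 62 and 51 (29.6% and 33.4%), and in Paneth cells 0 members of 2D-1 lay below both, with 30 above both (backgrounds 11.4% and 61.3%), and 4 members of 2D-2 lay below both (32.7%).

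**Figure D4:**
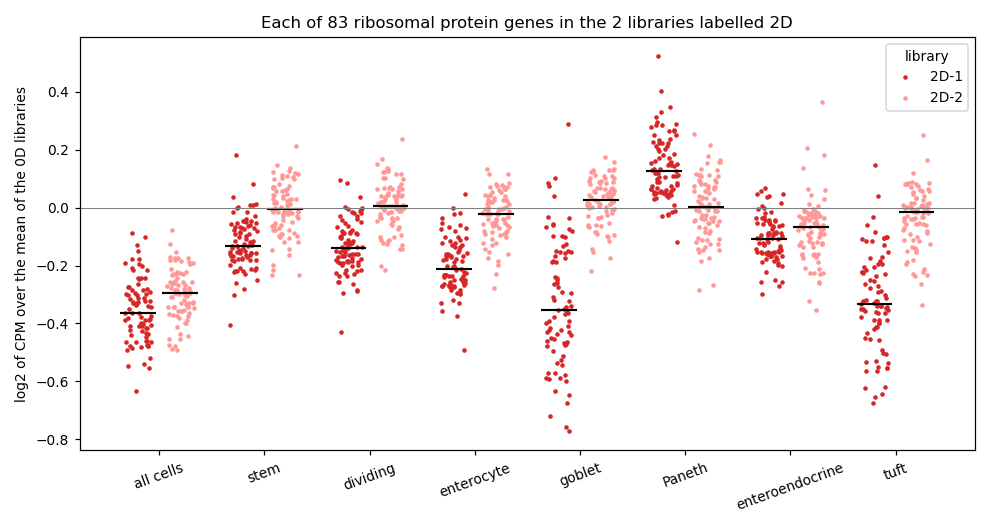
Log2 of each member's CPM over the mean of the 0D libraries, with 1 CPM added (y axis), in 2D-1 and 2D-2 for all cells and each class (x axis); each point is 1 of 83 genes and the black lines are medians. In goblet cells the median is -0.35 in 2D-1 and 0.02 in 2D-2.

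The count of called members rested on which 2D library was used. Without 2D-2, edgeR called 75 members lower in goblet cells (background 17.9% of genes), 15 in tuft (1.57%), 13 in enterocytes (5.47%), 5 in stem (3.21%) and 4 in dividing cells (3.57%), and 22 in all cells (5.77%). It called 0 in Paneth (0.324%) and enteroendocrine cells (0.5%). Without 2D-1 it called 0 members lower in all cells and in each class, where it called 12.8% of all genes lower in all cells, 2.26% in stem, 0.338% in dividing, 2.25% in enterocyte, 1.06% in goblet, 0.427% in Paneth, 1.64% in enteroendocrine and 0.343% in tuft cells. In these fits 1 group has a single library, whose spread is taken to be that of the others.

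In goblet cells other measures stood apart in 2D-1 as well. The median mitochondrial share of its goblet cells was 8.60%, against 3.73%, 3.44% and 3.86% in the other libraries. Its interferon-response genes took 23.5 of every 10000 goblet UMIs, against 5.37, 5.66 and 5.11, and 14.5 in stem cells, against 3.35, 3.72 and 2.63. Nuclear-retained RNAs took 141 of every 10000 goblet UMIs in 2D-1, against 81.1, 79.8 and 93.3. The median depth of its goblet cells was 7434.5 UMIs, against 11038, 12741 and 9337. Stem cells differed in these measures. Their median mitochondrial share was 5.71% in 2D-1, against 5.48%, 5.17% and 5.02%. Nuclear-retained RNAs took 48.1 of every 10000 stem UMIs in 2D-1, against 48.4, 45.4 and 62.8. The median depth of stem cells was highest in 2D-1, at 17959 UMIs against 12113.5, 14438.5 and 10535. The part of these measures in the member share was not tested. Among goblet cells with under 5% mitochondrial UMIs, 2D-1 held 16.4%, against 18.6%, 17.8% and 18.9%. Among those with 10% or more it held 11.02%, against 16.7%, 14.9% and 14.5%. Goblet cells of 10000 to 20000 UMIs held 15.6% in 2D-1, against 18.3%, 17.5% and 18.3%. Goblet cells with 2 to 10 interferon-response UMIs per 10000, 263 cells in 2D-1, held 18.1%, against 19.0%, 18.0% and 18.7%. Those above that range held 14.3%, against 15.5%, 14.6% and 14.6%. They numbered 2742 in 2D-1, against 509, 499 and 668. In the range of 2 to 10, stem cells of 2D-1 held 26.9%, against 29.3%, 28.2% and 28.8%. Enterocytes held 19.3% (27 cells), against 21.0%, 19.7% and 20.4%. Dividing cells held 23.1%, against 24.4%, 23.0% and 23.7%. Enteroendocrine cells held 13.8%, against 14.9%, 14.3% and 13.7%. These splits of cells were chosen after the values were seen.

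The lower level in goblet cells of 2D-1 was uneven over the genes. Rps15a, Rps7 and Rps13, all of the small subunit, lay furthest below the 0D mean, at log2 values of -0.77, -0.76 and -0.72. Large-subunit Rpl30 and Rpl36a followed at -0.67 and -0.65. In contrast 5 members lay above both 0D libraries, as did 62.0% of all genes. Rpsa reached 3664 CPM, against 3132 and 2864 in the 0D libraries and 3192 in 2D-2. Rpl4, Rpl36 and Rpl41 were among the others, at 0.08, 0.08 and 0.04. Rpl41, which encodes the shortest ribosomal protein, held 4689, 4588, 4766 and 4678 CPM, a narrower range than that of Rps29 (3121, 2909, 2030 and 2590).

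Some members were lower in both 2D libraries in class after class. The classes were cut from the same 4 libraries, so they are not independent repeats. Counted over the 7 classes, 11 members had both 2D libraries below both 0D libraries in 6 of them, the exception being Paneth cells each time. Of the 7781 genes tested in each class, 1.18% had this in 6 classes. Among them were Rpl22, Rpl34, Rpl37, Rpl37a, Rpl39, Rpl7a, Rps18, Rps21, Rps23 and Rps29. Another 32 had it in 0 classes, as did 43.2% of those genes. By class, members in that position numbered 27 in stem, 19 in dividing, 31 in enterocyte, 17 in goblet, 0 in Paneth, 40 in enteroendocrine and 24 in tuft cells. The background shares of all genes were 17.1%, 23.1%, 23.5%, 16.6%, 7.65%, 17.4% and 17.3%. The goblet and dividing counts lie near their background. Both 2D libraries lay above both 0D libraries for 1 member in stem, 2 in dividing, 0 in enterocyte, 2 in goblet, 8 in Paneth, 2 in enteroendocrine and 0 in tuft cells, against 27%, 18.6%, 20.5%, 26.7%, 25.4%, 22.1% and 22.7% of all genes. Rpl29 did so in 3 classes.

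Rps29, a small zinc-binding protein of the small subunit, had the lowest log2 change of the 83 in all cells and in 6 of 7 classes. In stem cells it held 3994 and 3791 CPM in the 0D libraries and 2938 and 3313 in the 2D libraries (log2 change -0.35, SE 0.09, adjusted p = 0.243). In goblet cells it held 3121, 2909, 2030 and 2590 (-0.45, SE 0.29, adjusted p = 0.603), and in enteroendocrine cells 2164, 1978, 1682 and 1658 (-0.33, SE 0.10, adjusted p = 0.34). In Paneth cells the values 477, 370, 390 and 348 overlapped. Rps21, another small-subunit protein, followed in stem cells (-0.27), with 2590, 2402, 2026 and 2231 CPM. Neither gene passed the threshold, and both were picked for their values.

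**Figure D5:**
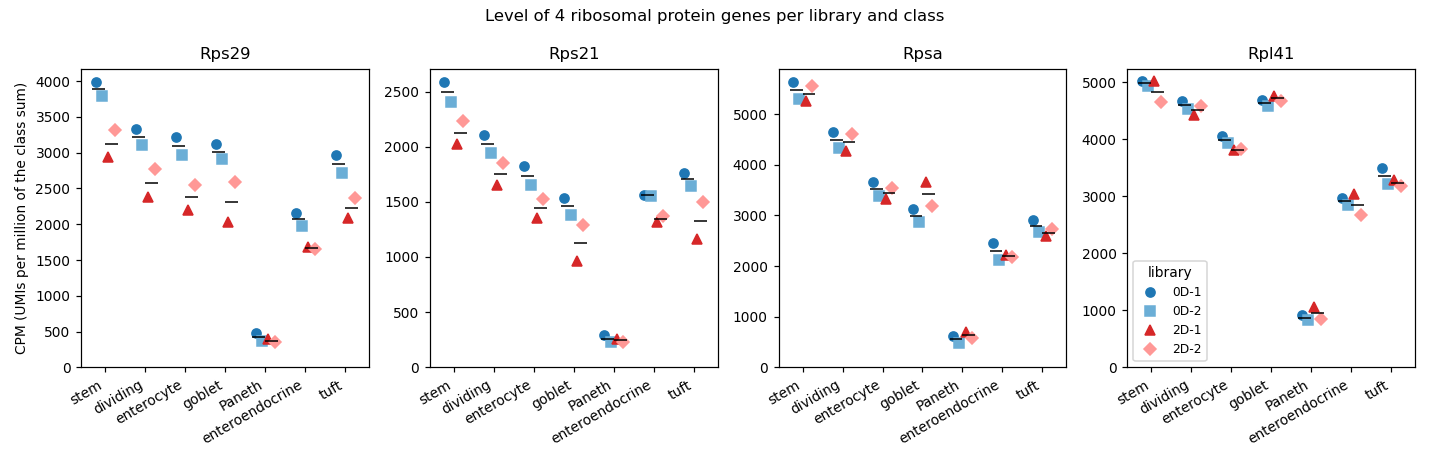
CPM (y axis) of Rps29, Rps21, Rpsa and Rpl41 in each class (x axis) and library (symbols); black lines are group means. Both 2D libraries lie below both 0D libraries for Rps29 and Rps21 in every class but Paneth cells, and Rpsa in goblet cells is highest in 2D-1.

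The members at the low and high ends of each comparison are given next, none of them called. In all cells Rps29 and Rps21 were lowest (-0.44 and -0.39), and Rpl29, Rpl41 and Rpl7l1 highest (-0.04, -0.04 and -0.06). In stem cells Rps29, Rps21 and Rpl38 were lowest (-0.35, -0.27 and -0.25), and Rpl21, Rpl29 and Rpl7l1 highest (0.08, 0.06 and 0.06). Stem and dividing cells thus shared Rps29, Rps21, Rpl29 and Rpl7l1 at their ends. In dividing cells Rps29, Rps21 and Rpl37 stood at -0.31, -0.20 and -0.19, and Rpl29, Rps19bp1 and Rpl7l1 at 0.14, 0.13 and 0.13. In enterocytes Rps29, Rps21 and Rpl37 stood at -0.37, -0.26 and -0.25, and Rpl29, Rpl7l1 and Rpl21 at 0.07, 0.05 and 0.02. In goblet cells Rps29, Rps21 and Rps7 stood at -0.45, -0.43 and -0.38, and Rpsa and Rpl4 at 0.11 and 0.03. Paneth cells had Rps29, Rps27rt and Rps27 at -0.30, -0.24 and -0.19, and Rpl22l1, Rpl27 and Rps6 at 0.24, 0.15 and 0.13. Tuft cells had Rps27l, Rpl12 and Rpl39 at -0.51, -0.42 and -0.41, and Rpl7l1, Rpl36 and Rpl29 at 0.13, 0.04 and 0.01. Enteroendocrine cells had Rps29, Rpl36a and Rps2 at -0.33, -0.29 and -0.27, and Rps19bp1, Rpl36al and Rpl10 at 0.14, 0.11 and 0.06.

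Other genes of the translation pathway were read from fixed lists, with no test of the lists. The 17 translation factors and other genes of the TOP class, among them the elongation factors Eef1a1, Eef1b2 and Eef2, followed the members across classes: 17 of 17 were called lower in enteroendocrine and tuft cells, 15 in goblet and Paneth cells, 11 in enterocytes and 10 in dividing cells, and 0 higher. Ribosome biogenesis genes, which process ribosomal RNA in the nucleolus, lay lower still. Their median log2 difference was -1.22 in enterocytes (25 of 27 lower), -0.9995 in goblet (24) and -1.74 in enteroendocrine cells (27), against member medians of -0.29, -0.46 and -1.29. The RNA polymerase I genes showed 9 of 11 lower in enterocytes and 8 in goblet cells. Mitochondrial ribosomal protein genes, named Mrpl and Mrps, differed from the members in dividing cells and enterocytes. In dividing cells 70 of 78 were called higher and 0 lower (median 0.38), and in enterocytes 57 higher and 1 lower (median 0.39), the opposite side from most cytosolic members. In the other classes they were mostly lower, 75 in enteroendocrine cells with 0 higher, 73 in tuft with 0, 59 in goblet with 6 and 58 in Paneth cells with 3. For mTORC1 and TOP control genes the median stayed between -0.34 and 0.16 in the 6 classes.

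Between 2D and 0D these lists had no called gene in all cells or in any class. In all cells the median log2 change was -0.17 for the translation factors and other TOP genes, -0.03 for ribosome biogenesis, -0.04 for RNA polymerase I, 0.07 for mTORC1 and TOP control and -0.22 for mitochondrial ribosomal proteins, against -0.21 for the members and 0.01 for all genes. Of the first list, Hnrnpa1, an RNA-binding splicing protein, and Npm1, a nucleolar chaperone, had the smallest p in all cells (-0.37 and -0.35), with edgeR's adjusted p of 0.191 and 0.197. Fau and Rack1, outside the prefix rule, were at -0.18 and -0.22.

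Among 2664 other genes of at least 50 CPM on average, Rack1 tracked the summed share most closely over the 28 class-by-library sums (Spearman rho 0.993). Rack1 encodes a scaffold protein of the small subunit. Next came the elongation factor genes Eef1b2 (0.986) and Eef1g (0.976), the initiation factor genes Eif3i (0.979) and Eif3k (0.971), Nop10 (0.977), whose protein joins the complexes that pseudouridylate ribosomal RNA, Naca (0.975), Snrpa1 (0.969), Prdx4 (0.964) and Dtymk (0.958). Fau reached 0.745. The sums share libraries, and shares of one total depend on each other, so these values are descriptions.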

How the data were processed

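The authors deposited raw UMI counts, 1 gene-by-cell matrix per library, made from single-cell 3′ libraries (10x Genomics v2 protocol, per the labels' protocols). The submitters' processing notes name Cell Ranger 2.1.1 and mm10, while a file header names cellranger 7.0.0. Whether intronic reads were counted is not given in the sources used here.

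A cell needed 500 or more genes and no more than 20% mitochondrial UMIs. CPM are UMIs per 1000000 UMIs of a class sum. No doublet caller was run. Cells were placed in classes by the UMIs of marker genes per 10000 UMIs, with at least 3 markers detected. The gate heights were chosen after the marker distributions were seen: 20 for stem, 15 for dividing, 30 for enterocyte, 100 for goblet, 1000 for Paneth, 40 for enteroendocrine and 10 for tuft cells. Immune and stromal gates (10 and 30) removed 35 cells, and 1320 passed no gate. UMIs were summed per class and library and tested with edgeR 4.0.16 (R 4.3.3), using filterByExpr, TMM scaling, quasi-likelihood F tests and Benjamini-Hochberg adjustment over all genes tested at 0.05. DESeq2 1.42.0 was an alternative, as were library totals, no filter, stricter gates, at most 10% mitochondrial UMIs, a replicate block and leaving out each library. Exact binomial 95% intervals came from scipy 1.17.1. Scripts were tested on simulated counts.

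The members and lists were chosen with earlier results of these data known. Named genes were the 3 highest and 3 lowest changes between groups, the 3 called members furthest in each direction against stem cells, the 3 members with most and fewest UMIs, the paralogs, the stalk proteins, Rpsa, Rps6, Rpl5, Rpl11, Rps19bp1, the 10 nearest other genes and the list genes with the smallest p. Of 268 list symbols, 4 had no match. Some genes that this rule names are not reported here. Other genes were named after their values were seen.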

Additional observations from a re-analysis of the deposited data

How the results depend on the processing

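For member calls between 2D and 0D (0 in all cells and in each class), a fit with no filter on low genes gave 2 in stem and 1 each in dividing, enterocyte and enteroendocrine cells, and DESeq2 gave 1 in stem cells. With 1 library left out the count ranged from 0 to 22 in all cells, 0 to 5 in stem, 0 to 4 in dividing, 0 to 13 in enterocyte, 0 to 75 in goblet and 0 to 15 in tuft cells, each highest value coming without 2D-2. Dividing minus stem, with 40 members called, gave 67 under library totals, 75 with DESeq2 and 19 to 65 with 1 library left out. The labels give the replicate numbers no shared source, same-numbered libraries deviated with r = 0.067 over 15454 genes, and with the replicate block 0 members were called in all cells and in each class, as without it. The cause of these changes was not tested.

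Uncalled log2 changes near 0 turned sign. With stricter gates Rpl21, Rpl29 and Rpl7l1 in enterocytes became -0.0454, -0.0160 and -0.0144 and Rpl29 in tuft cells -0.0882. With at most 10% mitochondrial UMIs, Rpl29 and Rpl36 in tuft cells became -0.0408 and -0.1213. Leaving out 1 library gave -0.0084 to 0.1243 for Rpl10 and -0.0819 to 0.3559 for Rps19bp1 in enteroendocrine cells, -0.1161 to 0.1572 for Rpl4 and -0.957 to 0.0282 for Rps7 in goblet cells, -0.1136 to 0.1446 for Rpl21 in enterocytes, -0.0362 to 0.1863 for Rpl21 and -0.0382 to 0.1353 for Rpl7l1 in stem cells, -0.1301 to 0.0495 for Rpl29 and -0.1101 to 0.0158 for Rpl41 in all cells, and -0.1214 to 0.1261 for Rpl29 and -0.0795 to 0.1558 for Rpl36 in tuft cells. The Paneth minus stem differences of Rpl36al and Rps27l, called higher under TMM, turned to -2.2936 and -1.4226 under library totals.

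The mean summed share over the 4 libraries, without mitochondrially encoded genes, was 30.1% in stem, 24.7% in dividing, 21.1% in enterocyte and 18.3% in tuft cells. Without marker genes as well it was 22.2% in all cells (2D minus 0D -2.72 points), 30.5% in stem, 24.9% in dividing, 21.4% in enterocyte, 20.9% in goblet, 10.1% in Paneth, 16.5% in enteroendocrine and 18.8% in tuft cells. As the median over cells it was 2.18% in Paneth, 11.4% in enteroendocrine (2D minus 0D -0.280 points) and 13.4% in tuft cells. Stricter gates gave 3.64% in Paneth and 13.7% in enteroendocrine cells, and at most 10% mitochondrial UMIs gave 19.4% in tuft cells. With 1 library left out, the mean share of Rps27l in its pair was 25.41% to 26.91% in stem and 52.01% to 55.06% in Paneth cells. That of Rpl36al was 37.56% to 39.09% in stem and 58.58% to 61.17% in goblet cells.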

Other observations

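Other gene lists, read in the same fits against stem cells, differed between classes and did not all separate the secretory ones. Immediate early and dissociation genes were called higher in goblet cells for 17 of 17 (median log2 difference 3.26) and in Paneth and enteroendocrine cells for 15 of 17 (3.08 and 3.05), but in enterocytes for 8 (0.27). The integrated stress response is a pathway that limits translation initiation and raises amino acid supply. Its genes were called higher for 11 of 13 in goblet and 10 of 13 in Paneth cells (2.11 and 2.27). In dividing cells 7 of 13 were called lower (-0.64), and in tuft cells 3 were higher and 3 lower (0.08). For p53 targets, 8 of 11 were called higher and 2 lower in Paneth cells (1.65). In enteroendocrine cells 7 were higher and 4 lower (1.24), and in tuft cells 5 were higher and 4 lower (0.51). Goblet cells had 5 higher and 4 lower (0.24), and enterocytes 4 higher and 3 lower (0.11). Interferon-response genes were called higher for 14 of 17 in both enterocytes and goblet cells. In Paneth cells 6 of these were higher and 5 lower. These values are relative to TMM scaling, and in Paneth cells the median gene moves by -2.53 under library totals.

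Between 2D and 0D in all cells, 12 of 13 integrated stress response genes, 17 of 17 immediate early genes and 17 of 17 interferon-response genes had log2 changes above 0 (medians 0.40, 0.37 and 1.64), with 0 called by edgeR's quasi-likelihood test. The libraries of the 2D group differed in these lists. Per 10000 UMIs of all cells, interferon-response genes took 3.95, 4.27, 16.5 and 3.52 in the 4 libraries, in the order of the report. In 2D-1 17 of 17 lay above both 0D libraries, as did 38.9% of all genes. In 2D-2 11 of 17 lay below both, near the 65.3% of all genes. Immediate early genes took 35.3, 36.7, 31.2 and 52.1. Of these, 9 of 17 lay below both 0D libraries in 2D-1, near the 44.7% of all genes. In 2D-2 17 of 17 lay above both, as did 23.8% of all genes. Integrated stress response genes took 3.11, 3.41, 3.72 and 4.22. Among 15454 genes 3132 had an unadjusted p under 0.05, and DESeq2 called 406 higher and 297 lower. Chac1, a glutathione-degrading enzyme induced by Atf4, was at 0.73 and Psat1, an enzyme of serine synthesis, at 0.58 (adjusted p = 0.151 and 0.152).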
